A study of Mus musculus with 6 samples.

Results

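Germline and meiosis genes are the genes that germ cells use to guard their genome, to pair and recombine chromosomes and to enter meiosis, and that most somatic cells keep silent. The set holds 49 mouse genes chosen by symbol, with earlier results of these data known. A gene entered when its symbol was in the deposited table of 17912 genes. The table held 46 of the 49, and Tdrd6, Asz1 and Figla are not analysed here. Poly(A) RNA was sequenced in 6 libraries from cells whose labels read embryonic stem cells (ESCs), pluripotent cells of the early mouse embryo. Knockdown cells were 3 clones (replicates 5, 6 and 7, genotype EXOSC2_KD) carrying a short hairpin RNA against Exosc2, a subunit of the RNA exosome, a complex that shortens and destroys RNA starting at its 3′ end. They were set against 3 controls (replicates 1, 2 and 3, genotype WT). The labels give no strain, passage or other treatment, and do not state whether a control hairpin was present in the controls or whether these came from the clones' parental line. Each knockdown library is named as a separate clone, while nothing says that the controls were separate cultures, so p-values measure the spread between these libraries, which may be technical.

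In the mouse, germline genes fall into several working groups. PIWI proteins and Tudor-domain proteins make and use piRNAs, small RNAs that silence transposons in germ cells. Meiotic chromosomes are held by a cohesin with germline subunits, organised along an axis and joined by the synaptonemal complex, while recombination enzymes repair programmed DNA breaks between homologues. In ESCs many of these promoters are CpG-rich and are known targets of the repressor E2F6 and of the MGA–MAX pair within a non-canonical Polycomb complex (PRC1.6), and of DNA methylation.

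Exosc2 was lower in the clones, with scaled counts of 1138, 997 and 981 in clones 5, 6 and 7, against 2457, 2473 and 1954 in controls 1, 2 and 3. Clones kept 45.3% of the control mean, a log2 fold change of -1.14 ± 0.13 (SE, n = 3 each, limma adjusted p = 5.1e-05), while exact permutation of the labels (two-sided) returned p = 0.1, which no design of 3 against 3 can go below. A scaled count is a read count divided by a size factor of its library, with 21107761 to 26494985 reads per library. Markers did not fully bear out the ESC label in the clones. The marker counts here stand beside 38.3% lower and 35.2% higher among all 15179 genes tested (limma adjusted p under 0.05). Of 10 pluripotency markers 9 were lower and 1, Pou5f1, was higher. Of these 10, 7 kept under 1% of their control level, with Zfp42 and Utf1 at 0 in every clone. The summed level of that list was 92742.5 to 98883.5 in clones, most of it Pou5f1, and 105106 to 120592 in controls. Of 11 tested fibroblast and feeder-cell markers 10 were higher, with sums of 52329.6 to 67305.8 in clones and 9557.7 to 10908.6 in controls. Of 8 surface epithelium markers 5 were higher and 3 lower, with sums of 29455.1 to 32008.9 in clones and 22437.5 to 34863.2 in controls. Different genes made up these sums: Ehf averaged 16997 in clones and 1.69 in controls and Krt6a 3657 and 0, whereas Cdh1 averaged 982 and 15794. Among the controls, replicate 3 was the highest for 5 of 8 trophoblast markers and the lowest for 2, Eomes and Ascl2. Among all 17912 genes these counts were 7237 and 5967. Plac1 (a placental gene) read 274 in replicate 3, against 6.63 and 3.24 in replicates 1 and 2. Hand1 (a trophoblast transcription factor) read 476, against 71.0 and 100.4. Eomes read 313, against 456 and 441, and Ascl2 read 88.4, against 118 and 154. These genes were picked after their values were seen. Of 7 tested trophoblast markers 6 were lower and 1 was higher in the clones, with sums of 1026.6 to 1284.3 in clones and 3936.7 to 4680.4 in controls. Every clone carried both the knockdown and these shifts in cell state. Their parts in the results on germline genes therefore cannot be told apart, and were not tested. In bulk RNA, fewer cells of a type and less RNA per cell cannot be told apart either.

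Nearly the whole germline set was lower in the knockdown clones. Of 46 genes in the table, 44 had a mean of at least 10 over the 6 libraries and were tested with limma on log2(scaled count + 1), and 41 were lower at an adjusted p under 0.05. That is 93.2% of the tested germline genes, against 38.3% of all 15179 genes tested. The set was chosen with earlier results of these data known, so this contrast describes it and is not a test. Tdrd7 and Brdt were higher, where 35.2% of all genes were called higher, and Msh5 was not called. Spo11 and Tex101 fell below the filter and were not tested. Of the 46 genes, 43 had all 3 clones below all 3 controls, a pattern that 40.6% of all tested genes showed. A total of 35 of the 44 tested genes had a clone mean under 10 and passed the filter only through the controls, so these had to differ (11.3% of all tested genes were of this kind). Of the 9 with a clone mean of at least 10, 6 were lower. The matching share of all genes with such a clone mean was not computed, and the 38.3% also covers genes that passed only through the controls.

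The falls were large. The median log2 fold change of the tested germline genes was -6.68, with a range of -10.28 to 1.16, while the median of all tested genes was -0.07. With genes that had no clone read set at their bound, the median was -5.76. A log2 fold change under -5 was found for 30 of 44 tested germline genes (68.2%) and for 5.18% of all tested genes. Neither this contrast nor that of the medians is a test. Of the 44, 35 passed the filter only through the controls, against 11.3% of all tested genes. The 9 with a clone mean of at least 10 went in both directions. Their values were -6.41 (Rhox5), -5.29 (Tex15), -4.99 (Syce2), -4.14 (Kit), -1.81 (Tdrkh), -0.86 (Zcwpw1), 0.25 (Msh5), 0.73 (Brdt) and 1.16 (Tdrd7). The median germline gene averaged 1.0 scaled count in clones and 195 in controls when each group's median was taken separately. A total of 28 genes kept under 1% of their control level, 36 kept under 5% and 8 kept over 10%. Of all 17912 genes in the table, 1102 kept under 1%, 1821 under 5% and 15552 over 10%. In the clones 12 genes had no read in any library and another 12 had 1 to 3 reads in all, whereas all 46 had reads in every control. Among all 17912 genes, 742 had no clone read and 785 had 1 to 3.

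Summed over the 46 genes, the scaled counts were 1563.8, 1586.3 and 1384.7 in clones 5, 6 and 7, and 22536.9, 21096.2 and 23716.6 in controls 1, 2 and 3. The groups were far apart on this sum, and the clones held 6.73% of the control sum. Tdrd7 alone made up 53.1% of the clones' remainder, and Tdrd7, Zcwpw1, Kit and Syce2 together made up 81.8%. Each clone lacked reads for 19 or 20 of the 46 genes, and no control lacked any. Of all 17912 genes, 16558 to 16721 had a read in each clone and 17539 to 17632 in each control.

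**Figure D1:**
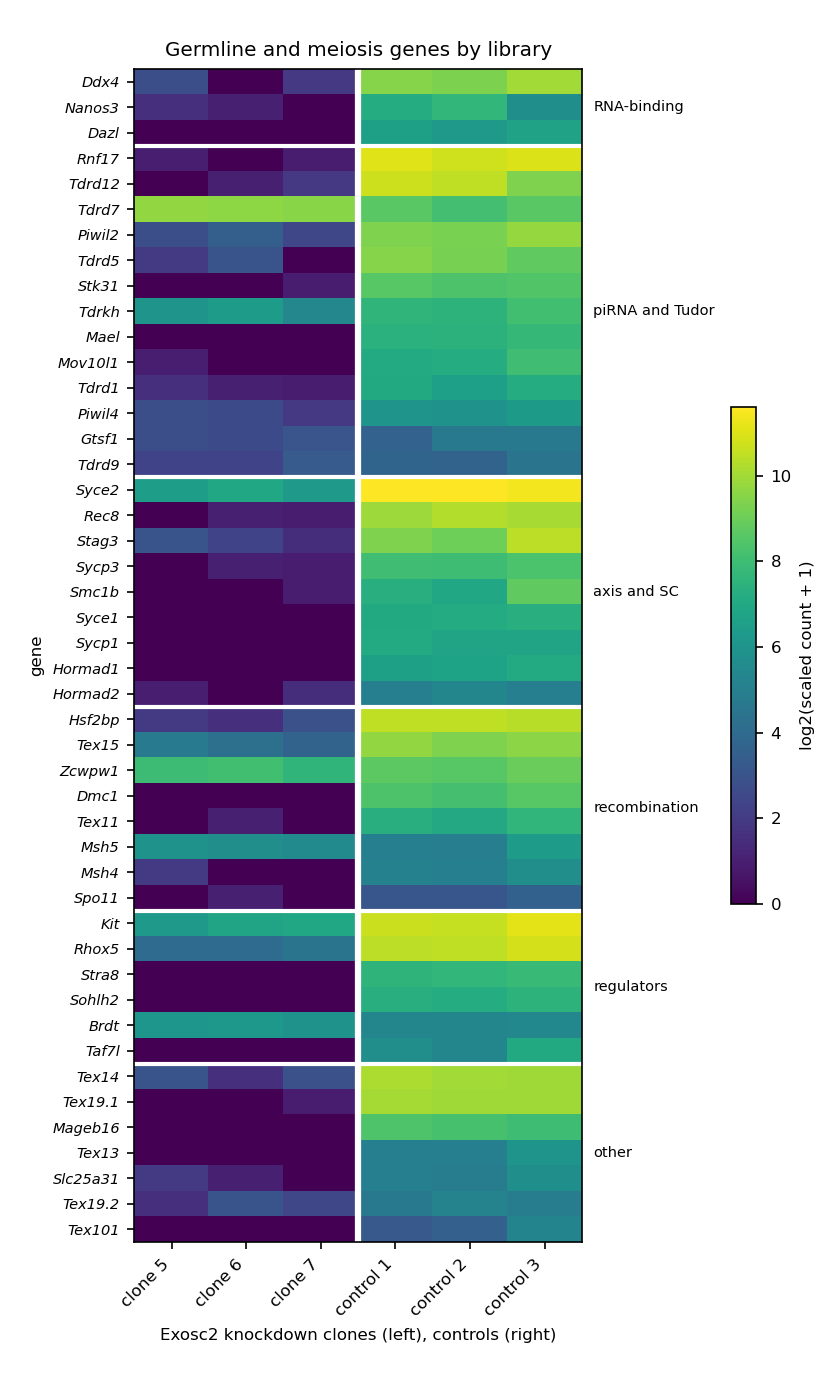
Levels of the 46 germline genes in the 6 libraries, as log2(scaled count + 1) by colour, with genes in rows grouped by role, clones in the left columns and controls in the right ones. The clone columns are near 0 for most genes, with Tdrd7, Zcwpw1, Kit and Syce2 the brightest, while every gene has signal in every control.

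Promoter sequence was examined because these genes moved together and because E2F6 and MGA–MAX sites are known at several of them. RefSeq promoter windows (GRCm38.p6, 250 bases before to 50 bases after the start) were available for 41 of the 46 genes. Searching both strands for TTCCCGC, an E2F-type motif, found it in 11 of the 41 genes (26.8%), in 9.29% of the 12101 genes of the deposited table that had a window and in 4.60% of all 32851 windows. CACGTG, the E-box of the MYC–MAX and MGA–MAX family, was in 14 (34.1%), against 11.3% of the table's genes and 7.15% of all windows. The shorter E2F core TCCCGC, which every TTCCCGC contains, was in 17 (41.5%), against 38.1% of the table's genes and 19.98% of all windows. A window with both TCCCGC and CACGTG was found for 8 germline genes (19.5%) and for 4.32% of the table's genes. TCCCGC or CACGTG was found for 23 germline genes (56.1%) and for 44.4% of the table's genes. Of the 37 lower germline genes with a window, 21 held either. The richest window of each gene held a median of 20 CpG in the germline genes and of 21 in the table's genes, and the median over all windows was 7. A gene counted when any of its windows matched, so shares of genes and shares of single windows are not on the same scale. All windows also include those of genes outside the deposited table. These are matches of letters, described without a test.

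The 7 stretches of 160 bases here show genes that lost their RNA with the motifs, beside Msh5 and Brdt, which hold a motif and were not lower. They are printed 5′ to 3′ on the gene's strand, from GRCm38.p6 chr13:112652311-112652470 (minus strand) for Ddx4, chr10:88459427-88459586 (plus) for Sycp3, chr3:95559517-95559676 (plus) for Hormad1, chr15:85131958-85132117 (minus) for Smc1b, chr17:32034509-32034668 (minus) for Hsf2bp, chr17:35046623-35046782 (minus) for Msh5 and chr5:107331034-107331193 (plus) for Brdt. Capitals mark TTCCCGC, its reverse complement GCGGGAA, and CACGTG.
Ddx4: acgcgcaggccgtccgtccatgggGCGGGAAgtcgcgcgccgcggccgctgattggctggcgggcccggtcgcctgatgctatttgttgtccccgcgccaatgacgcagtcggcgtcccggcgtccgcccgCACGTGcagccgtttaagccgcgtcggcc
Sycp3: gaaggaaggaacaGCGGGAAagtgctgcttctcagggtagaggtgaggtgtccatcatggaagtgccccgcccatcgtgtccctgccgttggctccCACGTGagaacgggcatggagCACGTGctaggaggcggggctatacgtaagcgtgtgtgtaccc
Hormad1: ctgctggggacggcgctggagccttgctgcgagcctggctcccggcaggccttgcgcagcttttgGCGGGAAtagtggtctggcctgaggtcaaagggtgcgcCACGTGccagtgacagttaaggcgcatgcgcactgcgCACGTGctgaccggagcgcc
Smc1b: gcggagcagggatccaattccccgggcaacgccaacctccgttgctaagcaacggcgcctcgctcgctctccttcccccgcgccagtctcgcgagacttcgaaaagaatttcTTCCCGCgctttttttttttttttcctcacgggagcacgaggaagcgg
Hsf2bp: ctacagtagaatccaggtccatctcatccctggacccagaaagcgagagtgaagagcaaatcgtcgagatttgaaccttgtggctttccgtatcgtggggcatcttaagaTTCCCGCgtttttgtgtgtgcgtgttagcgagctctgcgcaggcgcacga
Msh5: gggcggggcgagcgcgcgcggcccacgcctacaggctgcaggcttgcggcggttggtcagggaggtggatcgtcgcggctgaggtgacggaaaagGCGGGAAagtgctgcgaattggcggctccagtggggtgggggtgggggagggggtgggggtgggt
Brdt: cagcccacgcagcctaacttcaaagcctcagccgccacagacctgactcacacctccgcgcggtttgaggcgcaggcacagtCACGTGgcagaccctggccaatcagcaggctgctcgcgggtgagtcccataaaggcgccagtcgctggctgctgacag
Ddx4, Sycp3 and Hormad1 carry both motifs, Smc1b, Hsf2bp and Msh5 carry the E2F-type motif, and Brdt carries the E-box. Each motif was thus found both in genes that were lower and in a gene that was not. The lower genes printed were picked for holding a motif. Of the 37 lower genes with a window, 10 held TTCCCGC and 13 held CACGTG. Others held neither, among them Dazl, Tdrd12, Stra8 and Mageb16, and are not printed here. Tdrd7, which was higher, also held neither.

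The 3 germ cell RNA-binding proteins were all lower, where 38.3% of all tested genes were, and their median log2 fold change was -6.53. None had a clone mean of at least 10, so all passed the filter only through the controls. Ddx4 (chr13:112598333-112652475, minus strand), the mouse Vasa RNA helicase that marks germ cells, had 5.97, 0 and 2.77 scaled counts in clones 5, 6 and 7, against 731, 629 and 1013 in controls 1, 2 and 3. The lowest control was far above the highest clone, and the means of 2.91 ± 2.99 in clones and 791 ± 199 in controls (SD, n = 3 each) differed 272-fold (log2 fold change -8.03 ± 0.62, adjusted p = 4.7e-06). That size rested on single clones, since the log2 fold change was -8.64 without clone 5 and -7.24 without clone 6. Nanos3 (chr8:84173731-84185217, minus), which keeps primordial germ cells alive, had 1.99, 1.03 and 0 in clones, against 146, 207 and 53.2 in controls. Control 3 was the lowest control for this gene yet lay above every clone (ratio of control to clone 135, 95% Poisson interval 46.1 to 653, from 3 clone reads; adjusted p = 1.7e-05). Such intervals, given where the clones held 1 to 3 reads, and floors cover counting error only. Dazl (chr17:50279395-50293636, minus), an RNA-binding regulator of germ cell translation, had no read in any clone, against 96.6, 77.8 and 102 in controls. Measured against a floor of 3 reads per library, Dazl was at least 31.3-fold lower in the clones (adjusted p = 2.2e-07).

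Among the 13 piRNA and Tudor-domain genes in the table, 12 were lower and 1 was higher, with a median log2 fold change of -6.55. Of all tested genes, 38.3% were lower and 35.2% higher. Only 2 of the 13 had a clone mean of at least 10, and the rest passed the filter only through the controls. Rnf17 (chr14:56402581-56525032, plus), a Tudor-domain protein of spermatogenic cells, had 0.995, 0 and 0.923 in the clones, against 2078, 1725 and 2035 in the controls. It had the lowest log2 fold change of the set, with 2 reads over the 3 clones and 5817 over the 3 controls, a ratio of 3045 (95% interval 843 to 25139.9; log2 fold change -10.28 ± 0.31, adjusted p = 5.5e-08). Tdrd12 (chr7:35469098-35537745, minus), needed for secondary piRNAs in mouse testis, had 0, 1.03 and 2.77 in clones, against 1672, 1453 and 652 in controls. Control 3 held less than the other controls and far more than any clone, and the group means differed 995-fold (log2 fold change -9.21 ± 0.52, adjusted p = 8e-07).

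Tdrd7 (chr4:45965334-46034761, plus) went the other way. This Tudor-domain protein of germ granules is also known from the lens of the eye. Its scaled counts were 859, 793 and 756 in clones 5, 6 and 7, against 403, 283 and 399.7 in controls 1, 2 and 3. All clones lay above all controls (802 ± 52.1 against 362 ± 68.5, 2.22-fold higher; log2 fold change 1.16 ± 0.17, adjusted p = 0.00023). Per kilobase of exon, its level of 203 scaled counts was the highest of all 46 genes in the clones, and its control level was 91.5.

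The other genes of this group differed in how much they kept. Piwil2, a PIWI protein that binds piRNAs, averaged 6.95 ± 2.96 in clones and 720.4 ± 144 in controls, 104-fold lower. Its relative Piwil4, which acts in the nucleus of fetal male germ cells, averaged 4.62 and 68.1, 14.7-fold lower. The other genes with at least 100 scaled counts in controls and almost none in clones were Tdrd5 (173-fold lower, log2 fold change -7.49, which was -8.17 without clone 6 and -6.66 without clone 7), Tdrd1 (94.0-fold lower), Stk31 (1 clone read, ratio 1161, interval 208 to 45846), the piRNA helicase Mov10l1 (1 clone read, ratio 545, interval 97.8 to 21534) and Mael, which had no clone read and was at least 63.6-fold lower. Tdrkh, a mitochondrial partner of PIWI proteins, had 62.7, 81.2 and 40.6 in clones, against 190.3, 180.4 and 270.2 in controls. It kept 28.8% of its control level, with no overlap between the groups (log2 fold change -1.81 ± 0.29, adjusted p = 0.00048).

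Gtsf1 and Tdrd9 were scarce in both groups. Gtsf1, a cofactor of PIWI proteins, averaged 6.16 ± 1.13 in clones and 20.4 ± 7.86 in controls (log2 fold change -1.51 ± 0.38, adjusted p = 0.0058). Tdrd9, a helicase with a Tudor domain, averaged 5.77 ± 2.99 in clones and 15.1 ± 5.20 in controls (-1.29 ± 0.40, adjusted p = 0.018). These calls were not kept under quantile normalization, which gave 0.15 for Gtsf1 and 0.66 for Tdrd9, neither past the threshold. Tdrd9 also lost its call without clone 5 (-1.11, adjusted p = 0.0635), without clone 6 (-1.13, adjusted p = 0.059) and with DESeq2 (-1.39, adjusted p = 0.0803).

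All 9 genes of the synaptonemal complex and the meiotic axis were lower, where 38.3% of all tested genes were. Their median log2 fold change was -7.17 (-5.61 with genes lacking clone reads at their bound). Only 1 of the 9, Syce2, had a clone mean of at least 10, and the rest passed the filter only through the controls. Syce2 (chr8:84872111-84888221, plus), a protein of the central element of the synaptonemal complex, had 86.5, 119 and 77.5 in clones, against 3122, 3117 and 2728 in controls. It had the highest control mean of all 46 genes and kept measurable RNA in every clone, 31.7-fold below the controls (94.4 ± 21.9 against 2989 ± 226; log2 fold change -4.99 ± 0.18, adjusted p = 8.4e-08). Its locus overlaps that of Gcdh, which averaged 729 in clones and 1034.7 in controls. Rec8 (chr14:55618037-55625395, plus), the meiotic kleisin subunit of cohesin, had 0, 1.03 and 0.923 in clones, against 964, 1241 and 1075 in controls. Only 2 clone reads remained, against 3237 control reads (ratio 1682, interval 466 to 13888; adjusted p = 7.5e-08). Stag3 (chr5:138280240-138312393, plus), the meiotic SA subunit of cohesin, had 6.96, 4.11 and 1.85 in clones, against 668, 536 and 1403 in controls. Control 3 was well above the other controls, and all controls lay far above the clones (202-fold, log2 fold change -7.35 ± 0.46, adjusted p = 1.4e-06).

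The remaining axis genes had few or no clone reads. Sycp3, a lateral element protein whose promoter is printed above, averaged 278 ± 33.2 in controls and had 2 reads over the 3 clones (ratio 427, interval 118 to 3529). Smc1b, the meiotic SMC1 subunit of cohesin, had 0, 0 and 0.923 in clones, against 153, 121 and 439 in controls, with control 3 again the highest (ratio 773, interval 139 to 30539.6). No clone held a read of the central element gene Syce1 (at least 48.7-fold lower), of the transverse filament gene Sycp1 (at least 39.8-fold) or of the axis gene Hormad1 (at least 38.3-fold). Hormad2 averaged 0.947 in clones and 33.8 ± 4.44 in controls (ratio 35.7, interval 12.2 to 173).

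Of 7 tested recombination genes 6 were lower, where 38.3% of all tested genes were, and 1 was not called (median log2 fold change -5.29). A clone mean of at least 10 was found for 3 of the 7, and the rest passed the filter only through the controls. Hsf2bp (chr17:31944769-32036349, minus), a partner of BRCA2 in meiotic recombination, had 2.98, 2.05 and 6.46 in clones, against 1441, 1438 and 1298 in controls. The controls lay close together and 363-fold above the clones (3.83 ± 2.32 against 1392 ± 81.9; log2 fold change -8.27 ± 0.33, adjusted p = 1.3e-07). Tex15 (chr8:33516738-33585582, plus), needed for meiotic recombination and for piRNA-directed silencing in mouse testis, had 26.9, 18.5 and 12.0 in clones, against 836, 651 and 765 in controls. The groups did not overlap (39.3-fold lower; log2 fold change -5.29 ± 0.29, adjusted p = 6.5e-07).

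Zcwpw1 and Msh5 were the exceptions among recombination genes. Zcwpw1 (chr5:137787798-137822621, plus), a reader of the histone marks that PRDM9 writes, had 248, 271 and 195 in clones, against 417, 381 and 495 in controls. Every clone was below every control, but the clones kept 55.2% of the control level (238 ± 39.2 against 431 ± 58.3; log2 fold change -0.86 ± 0.18, adjusted p = 0.0024). Msh5 (chr17:35028605-35046745, minus), which with MSH4 stabilises crossover intermediates, had 58.7, 52.4 and 44.3 in clones, against 31.3, 30.2 and 84.4 in controls. The clones lay between the controls, 2 of which were lower and 1 higher, and the difference did not pass the test (51.8 ± 7.23 against 48.6 ± 31.0; log2 fold change 0.25 ± 0.40, adjusted p = 0.59). Without control 3 the value was 0.725 and passed it (adjusted p = 0.0273). Its partner Msh4 had 3 clone reads, all in clone 5, and a ratio of 39.1 (interval 13.4 to 189.6), with a log2 fold change of -4.62, or -5.28 without clone 5. Dmc1, the meiotic strand-exchange enzyme, had no clone read, against 332, 291 and 386 in controls, and was at least 114-fold lower. The X-linked Tex11 had 1 clone read (ratio 473, interval 84.8 to 18663). Spo11, which makes the meiotic DNA breaks, was not tested, at 0, 1.03 and 0 in clones and 7.58, 7.56 and 11.0 in controls.

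Of 6 genes for transcription, chromatin and signalling, 5 were lower and 1 was higher (median log2 fold change -6.23). The shares of all tested genes were 38.3% lower and 35.2% higher. A clone mean of at least 10 was found for 3 of the 6, and the rest passed the filter only through the controls. Kit (chr5:75574916-75656722, plus), the receptor for stem cell factor used by germ cells, mast cells and melanocytes, had 76.6, 109 and 121 in clones, against 1634, 1554 and 2222 in controls. Clones lay 17.7-fold below controls with no overlap (102 ± 22.9 against 1803 ± 365; log2 fold change -4.14 ± 0.21, adjusted p = 4.6e-07). Of 8 listed markers of mast cells and melanocytes only Mitf and Pmel were in the table. Both were lower, as were 38.3% of all tested genes. Their summed level was 45.2 to 49.8 in clones and 334.5 to 466.6 in controls. Rhox5 (chrX:37804842-37808876, plus), an X-linked homeobox gene, had 15.9, 15.4 and 21.2 in clones, against 1398, 1462 and 1849 in controls. The fall was 89.6-fold (log2 fold change -6.41 ± 0.21, adjusted p = 6.6e-08), and with 23.2 scaled counts per kilobase in clones and 2082 in controls it had the highest control level per kilobase of all 46 genes. Stra8 (chr6:34920163-34939344, plus), which retinoic acid induces at the entry to meiosis, had no clone read, against 184, 202 and 223 in controls, and was at least 68.9-fold lower (adjusted p = 8.3e-08). The germ cell transcription factor Sohlh2 was at least 54.3-fold lower and the X-linked TFIID subunit gene Taf7l at least 25.5-fold lower, with no clone read for either.

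Brdt (chr5:107331159-107387058, plus), the testis member of the BET bromodomain family, was higher in the clones. It had 67.6, 70.9 and 60.9 in clones 5, 6 and 7, against 38.8, 38.9 and 41.2 in controls 1, 2 and 3. Every clone lay above every control, and the rise was 1.68-fold (66.5 ± 5.10 against 39.6 ± 1.34; log2 fold change 0.73 ± 0.22, adjusted p = 0.014). The call was near the threshold: it was lost without clone 5 (0.716, adjusted p = 0.0545), without clone 6 (0.682, adjusted p = 0.0519) and when each chromosome was centred (0.435, adjusted p = 0.106).

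The other germline-restricted genes comprised 7 in the table, of which all 6 tested were lower (median log2 fold change -6.45), against 38.3% of all tested genes. None had a clone mean of at least 10, so the 6 passed the filter only through the controls. Tex14 (chr11:87405065-87555823, plus), which keeps the bridges between germ cells open, had 6.96, 2.05 and 6.46 in clones, against 1168, 1030.3 and 999 in controls. The groups were 207-fold apart (5.16 ± 2.70 against 1066 ± 89.6; log2 fold change -7.55 ± 0.37, adjusted p = 3.3e-07). Tex19.1 (chr11:121146143-121148319, plus), a gene of germ cells, placenta and ESCs that restrains retrotransposons, had 0, 0 and 0.923 in clones, against 1048, 985 and 984 in controls. A single clone read stood against 2999 control reads (ratio 3271, interval 587 to 129199; adjusted p = 6.8e-08). Its neighbour copy Tex19.2 kept 15.6% of its control level, though reads may be split between such near copies. Mageb16 (chrX:79623231-79671435, minus), an X-linked MAGE-family gene, had no clone read, against 341, 301 and 255 in controls, and was at least 102-fold lower (adjusted p = 7.1e-08). The adenine nucleotide carrier Slc25a31 was 28.3-fold lower, Tex13 was at least 14.4-fold lower, and Tex101, not tested, had no clone read, against 8.52, 10.8 and 37.2 in controls.

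**Figure D2:**
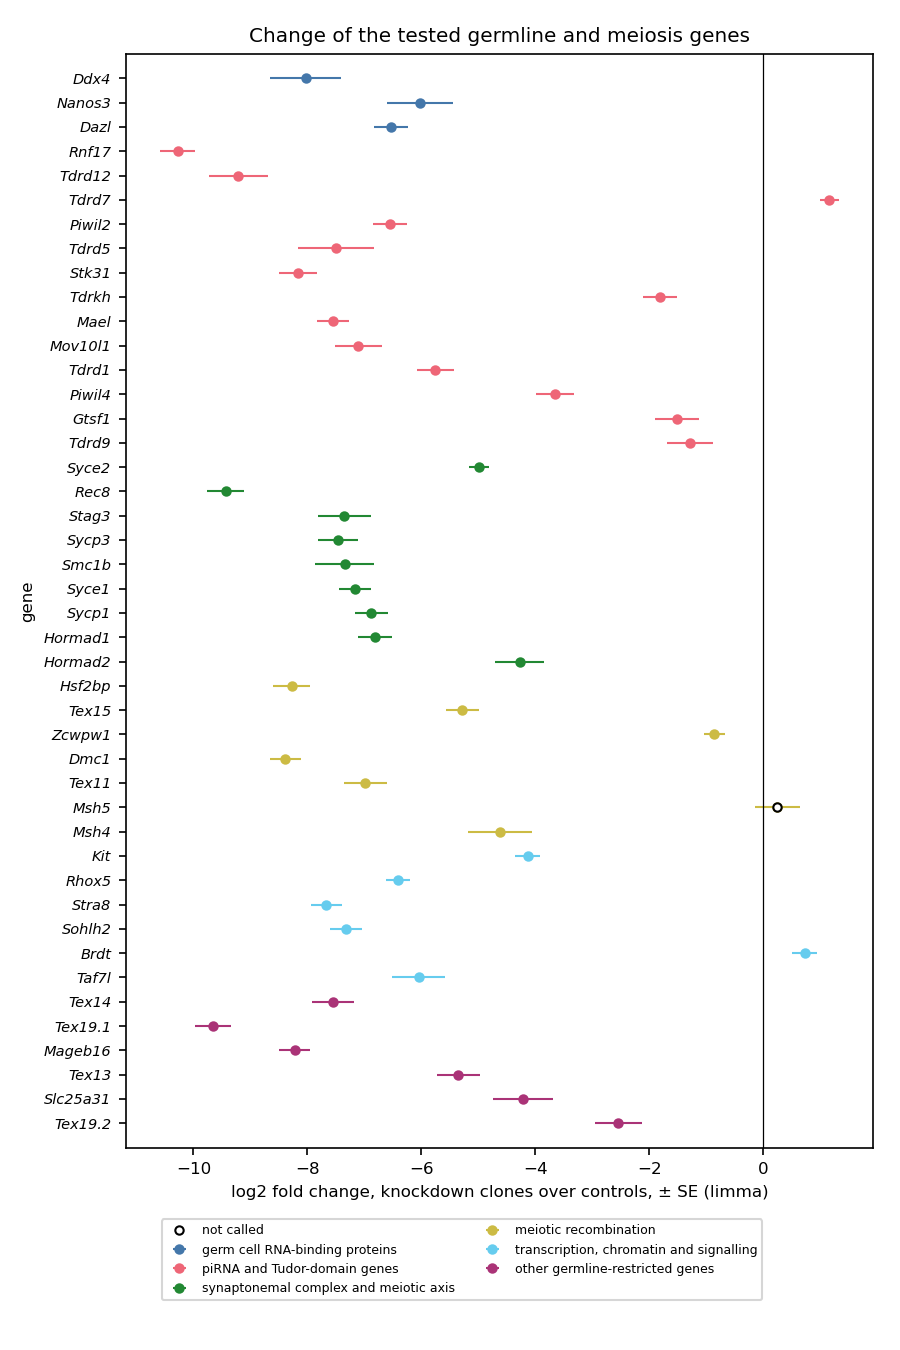
Log2 fold change (clones over controls, on the log2(scaled count + 1) scale) of the 44 tested germline genes, grouped by role, with bars for the standard error; filled points passed the test and the open point did not. All but 3 genes lie left of 0 and pass the test, from Rnf17 at -10.28 to Zcwpw1 at -0.86, while Tdrd7 and Brdt lie right of 0, as does the open point of Msh5.

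All 5 X-linked genes (median log2 fold change -6.41) and 36 of 39 tested autosomal genes were lower, against 38.3% of all tested genes. Only 1 of the 5 and 8 of the 39 had a clone mean of at least 10. The rest passed the filter only through the controls, and shares of all genes by chromosome class were not computed. In the controls, levels per kilobase of exon followed the order Rhox5 (2082 scaled counts per kilobase), Syce2 (1519), Tex19.1 (537), Hsf2bp (388), Rec8 (372), Rnf17 (312), Tdrd12 (290.2) and Ddx4 (262). In the clones the order was led by Tdrd7 (203), Syce2 (48.0), Zcwpw1 (41.8) and Rhox5 (23.2). Thus Syce2 and Rhox5 were among the 4 most abundant germline genes in both groups, although both had fallen.

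The controls themselves did not express the set evenly. The SD of the controls was 3.39% to 84.5% of the mean, with a median of 18.2%. Control 3 was the highest control for 28 of the 44 tested germline genes (63.6%) and for 40.1% of all tested genes. It exceeded the mean of controls 1 and 2 by more than 1.5 times for 9 tested germline genes (20.5%) and for 13.4% of all tested genes. At or above 2 times that mean stood Tex101 (3.85 times), Smc1b (3.20), Taf7l (2.91), Msh5 (2.74), Stag3 (2.33) and Tex13 (2.05). Nanos3 and Tdrd12 went against this, at 0.301 and 0.417 times. Control 3 is also the control with the highest Plac1 and Hand1 and the lowest Eomes and Ascl2. The part of these markers in these differences was not tested. Without control 3, 41 germline genes were lower, as with it, while 3 rather than 2 were higher.

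**Figure D3:**
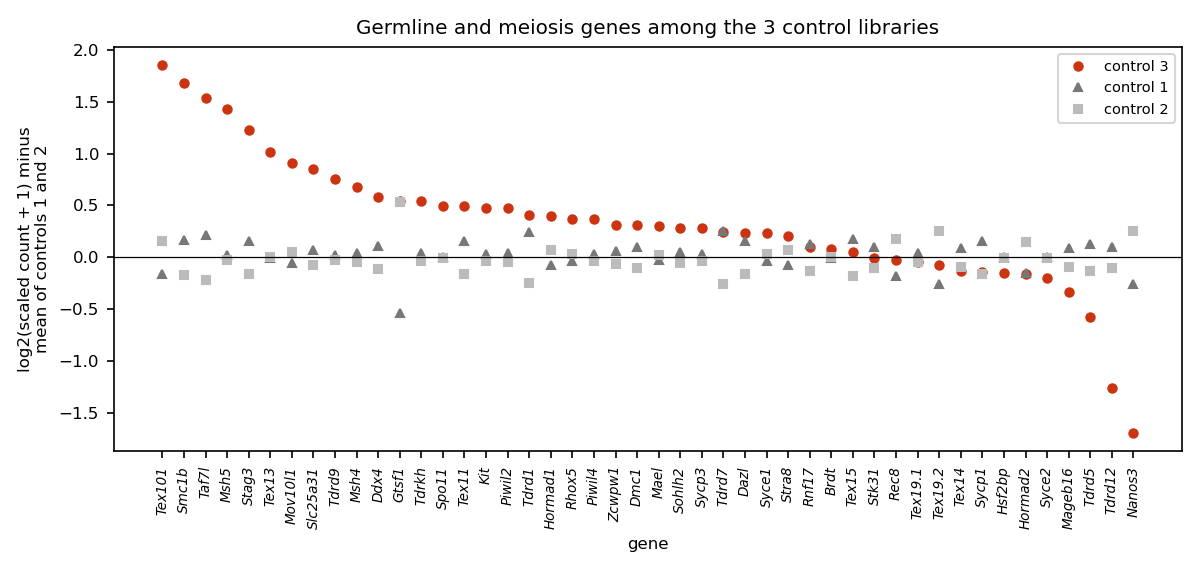
Level of each of the 46 germline genes in each control, as log2(scaled count + 1) minus the mean of controls 1 and 2 on that scale, with genes ordered by the value of control 3 (red circles; control 1 triangles, control 2 squares). Tex101, Smc1b, Taf7l, Msh5, Stag3 and Tex13 stand highest in control 3, and Nanos3 and Tdrd12 are the lowest.

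Other germline and meiosis genes, taken from a separate list of 65 of which 46 were in the table, included genes that were lower and genes that were higher. That list too was chosen with earlier results of these data known. Of 33 tested, 26 were lower (78.8%, against 38.3% of all tested genes), 4 were higher (12.1%, against 35.2%) and 3 were not called. However, 17 of the 33 had a clone mean under 10, passed the filter only through the controls and so had to differ. Of the other 16, with a clone mean of at least 10, 9 were lower, 4 were higher and 3 were not called. No matching share of all genes with such a clone mean was computed. The median log2 fold change of the 33 was -3.63 (-2.84 with genes lacking clone reads at their bound). Prdm14, a regulator of primordial germ cells and of naive pluripotency, had 0, 1.03 and 0.923 in clones, against 679, 594 and 874 in controls (ratio 1101, interval 305 to 9091). Hfm1, a crossover helicase, had no clone read, against 66.3, 38.9 and 54.2 in controls, and was at least 18.0-fold lower. Cpeb1, a regulator of polyadenylation in oocytes, had 42.8, 31.9 and 31.4 in clones, against 496, 376 and 473 in controls (log2 fold change -3.63 ± 0.22, adjusted p = 1.0e-06). For all 3 genes the groups were well apart.

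The genes of that list that were higher were Prdm1, Prdm9, Mybl1 and Nanos1, named here after their values were seen. Prdm9, the histone methyltransferase that places recombination hotspots, had 124, 112 and 97.8 in clones, against 51.1, 32.4 and 58.3 in controls (log2 fold change 1.25 ± 0.27, adjusted p = 0.0027). It was thus higher where its reader Zcwpw1 was lower. Prdm1, a specifier of primordial germ cells also used by many somatic tissues, had 1936, 1863 and 1755 in clones, against 1054, 792 and 551 in controls (1.26 ± 0.21, adjusted p = 0.00059). The X-linked Rhox6 and Rhox9, likewise chosen after their values were seen, had no clone read, with 259, 296 and 1574 for Rhox6 and 254, 264 and 1348 for Rhox9 in controls 1, 2 and 3. Both were thus highest in control 3, and reads may be split between Rhox copies. Markers of gonadal somatic cells were low, with 4 of 10 listed in the table. Of these 3 were lower, against 38.3% of all tested genes, and 1 was not called. Their sums were 34.8 to 47.0 in clones and 96.1 to 130.6 in controls.

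Related genes used in somatic cells were measured beside the germline genes, without a test of the difference between the lists. They do not all do the same work as the germline gene beside them. Of 13 such genes 7 were lower (53.8%, against 38.3% of all tested genes), 2 were higher (15.4%, against 35.2%) and 4 were not called, with a median log2 fold change of -0.31. For cohesin, Smc1a averaged 5478 in clones and 5594 in controls (log2 fold change -0.02, adjusted p = 0.86) and Rad21 averaged 10761 and 11395 (-0.08, adjusted p = 0.57). Neither passed the test, while the meiotic Smc1b and Rec8 had 1 and 2 clone reads. Stag1 was lower (1864 ± 161 in clones, 3328 ± 551 in controls; -0.83) and Stag2 higher (4708 ± 198 in clones, 3241 ± 369 in controls; 0.54, adjusted p = 0.002).

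Among MutS genes, the mismatch repair genes Msh3 (log2 fold change -1.79) and Msh6 (-1.05) were lower. So was the meiotic Msh4 (-4.62), whereas the meiotic Msh5 was not called. Among BET genes, Brd3 (-0.70) was lower and Brd2 (-0.16, adjusted p = 0.24) did not pass, whereas Brdt was higher. The general transcription factor gene Taf7, the autosomal relative of Taf7l, fell far more than the rest of this list (153 ± 22.1 in clones, 4109 ± 812 in controls; -4.72 ± 0.18). Slc25a4 was higher (11644 ± 670.3 in clones, 6769.5 ± 1364 in controls; 0.80), Slc25a5 (-0.31, adjusted p = 0.038) and Mov10 (-0.77) were lower, and Ago2 (0.17, adjusted p = 0.36) did not pass.

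**Figure D4:**
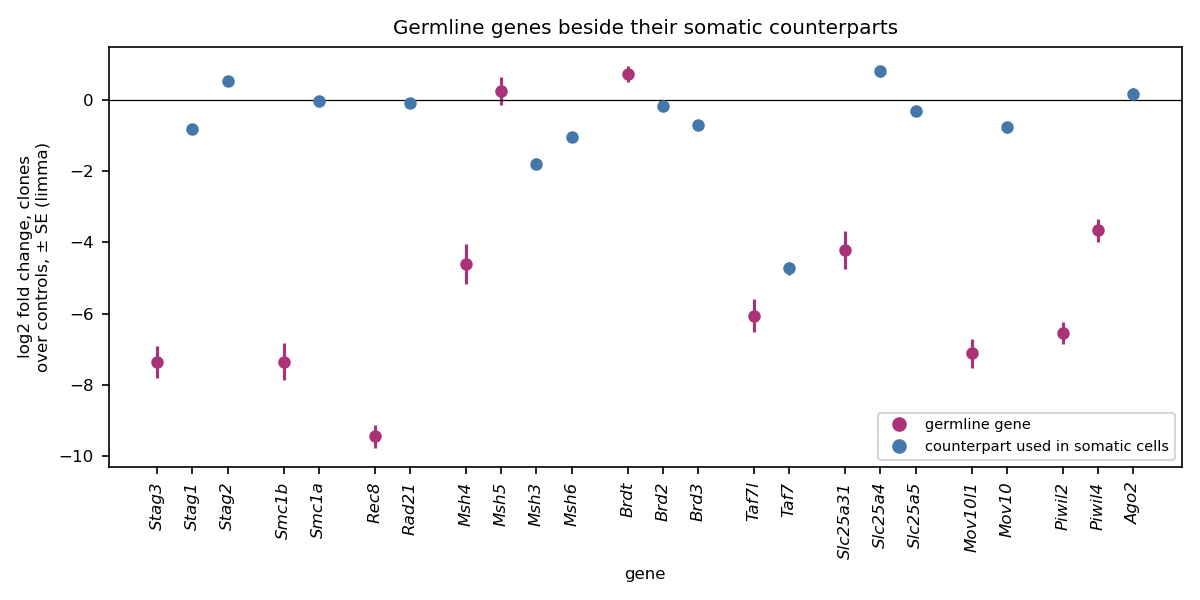
Log2 fold change (clones over controls, vertical axis) with its standard error for germline genes (purple) and for related genes used in somatic cells (blue), set side by side. Most somatic genes lie between -1.79 (Msh3) and 0.80 (Slc25a4), with Taf7 at -4.72, while Smc1b, Rec8 and Stag3 lie far below 0 and Msh5 and Brdt lie above it.

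Of 26 tested genes known to silence or demethylate germline promoters, 16 were lower (61.5%, against 38.3% of all tested genes), 4 were higher (15.4%, against 35.2%) and 6 were not called. Their median log2 fold change was -0.53. The deepest falls were those of Dnmt3l and Dnmt3b, among the 9 genes for H3K9 and DNA methylation, and of Tet1, a DNA demethylation gene. Dnmt3l, the cofactor of de novo DNA methylation in germ cells, had 3.98, 3.08 and 2.77 in clones, against 2599, 2859 and 1755 in controls (log2 fold change -9.11 ± 0.25, adjusted p = 3.6e-08). Dnmt3b, a de novo DNA methyltransferase, had 71.6, 61.6 and 62.7 in clones, against 3565, 3306 and 2120.3 in controls (-5.47 ± 0.21, adjusted p = 1.0e-07). Tet1, which oxidises methylcytosine, had 338, 334 and 275 in clones, against 11106, 7800.0 and 9862 in controls (-4.91 ± 0.15, adjusted p = 6.0e-08). In each of the 3 genes every control was far above every clone.

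The remaining silencing genes are named after their values were seen. Dnmt3a (-2.86), the co-repressor Trim28 (-1.71), the H3K9 methyltransferase Setdb1 (-0.65) and the maintenance methyltransferase Dnmt1 (-0.43) were lower, while Uhrf1, which guides DNMT1 to replicated DNA, did not pass (0.11, adjusted p = 0.45). Among 14 PRC1.6 genes and partners 8 were lower, 3 were higher and 3 were not called (median log2 fold change -0.29). Of all tested genes 38.3% were lower and 35.2% higher. The scaffold Mga (-1.02), Pcgf6 (-1.10) and L3mbtl2 (-0.62) were lower and Max (0.27) did not pass. The repressor gene E2f6 was higher, averaging 2133 ± 37.6 in clones and 741 ± 58.5 in controls (1.53 ± 0.11, adjusted p = 2.5e-06). Tet3 was also higher (1544 ± 48.1 in clones, 138 ± 62.1 in controls; 3.57), opposite to Tet1.

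**Figure D5:**
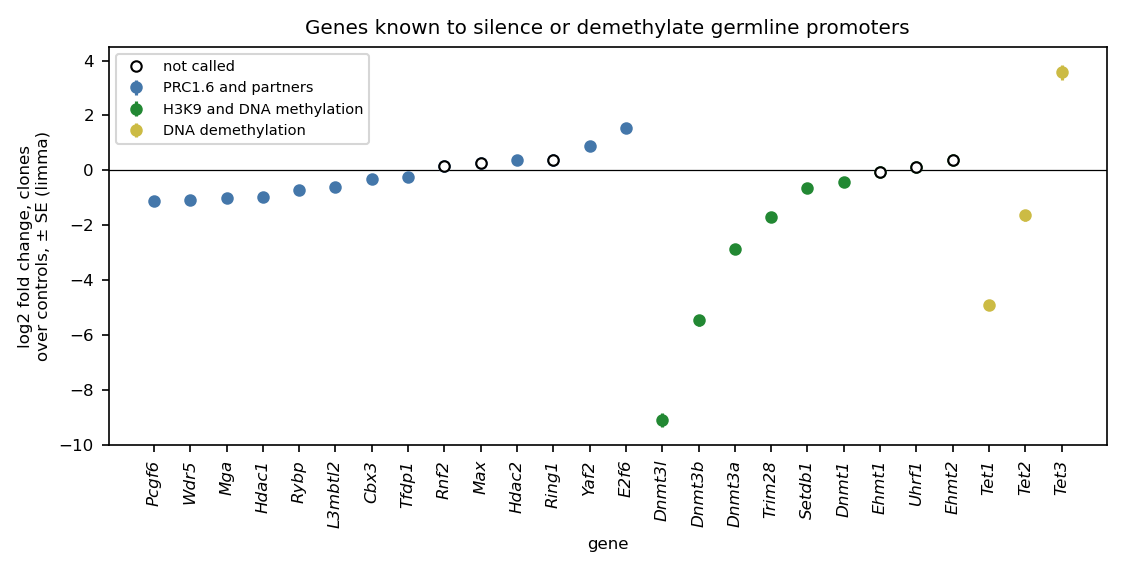
Log2 fold change (clones over controls) with its standard error for 26 genes of germline silencing and demethylation, filled where the test was passed and open where not, grouped as PRC1.6 and partners, H3K9 and DNA methylation, and DNA demethylation. Dnmt3l, Dnmt3b and Tet1 lie at -9.11, -5.47 and -4.91, E2f6 and Tet3 lie at 1.53 and 3.57, and many error bars are smaller than the points.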

How the data were processed

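Poly(A) RNA of 3 Exosc2 knockdown clones and 3 controls was measured. Per the labels' protocols, libraries were made from 500 ng of total RNA after poly(A) selection, with 8 PCR cycles of a TruSeq Stranded mRNA kit. Per the submitters' processing notes the tools were STAR 2.5.0a, cutadapt 1.6, DESeq 1.22.1 and HTSeq 0.5.3, with the build mm10. The deposited values are a signal, read counts per gene scaled by DESeq, per those notes and the table's values. The strand setting of the counting was not given in the sources used here. Genes that overlap another (6 germline genes, among them Syce2 and Hsf2bp) or have near-identical copies (Rhox, Tex19) are therefore uncertain.

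Within each library 100% of values were whole multiples of a step within 0.001 read, which gave the reads behind each value. In clone 5 and control 3 this step was close to 1, so scaled values and reads are hard to tell apart there. The lowest sum over the 6 libraries was 15 reads per gene. Of 17912 genes 17860 (99.71%) matched GENCODE M21 (GRCm38), which gave positions and exon lengths. Tex13 was matched to its RefSeq promoter (Tex13b) by synonym and position, and each window was taken as RefSeq gives it.

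Groups came from sample titles. The main test, on log2(value + 1), was limma 3.58.1 with a trended eBayes step, restricted to genes averaging at least 10 over the libraries, with Benjamini-Hochberg adjustment over 15179 genes and a threshold of 0.05. Every adjusted p is from it unless another tool is named. The fold changes understate those of low genes. For genes without clone reads a bound against 3 reads per library is given, and with 1 to 3 clone reads the ratio of means has an exact 95% Poisson interval. The test was tried on simulated counts beforehand. The members and lists were chosen with earlier results of these data known. Values per library are given for the 3 genes of each role with the highest mean and for genes not lower, for the 3 smallest p of each further list, for somatic counterparts as means or log2 fold changes, and for Exosc2. The counterpart list as drawn up held further genes, left out of its counts, that are not reported here. Other settings tried were a pseudocount of 0.5 or 5, a minimum mean of 50 or none, quantile or TMM scaling, eBayes untrended or robust, DESeq2 1.42.0 or edgeR 4.0.16 on the recovered reads, centring by chromosome (each chromosome's median deviation subtracted per library), and leaving out each library. Scripts used R 4.3.3, Python 3.11.15 and pandas 2.3.3.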

Additional observations from a re-analysis of the deposited data

How the results depend on the processing

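Over 17 alternatives to the main processing, 40 of the 44 tested germline genes kept their direction and their side of the threshold in every one, and 728 of 738 values did. The exceptions were Tdrd9, Gtsf1, Brdt and Msh5. With quantile normalization Gtsf1 was at 0.15 and Tdrd9 at 0.66, both turned in direction, and the cause was not tested. The number of germline genes lower was 39 to 43 with every setting but a mean of at least 50, which tested fewer genes and gave 31, and leaving out each library gave 40 to 41. The number higher was 1 with chromosome centring, 3 with quantile normalization, and 1 to 3 when each library was left out. The median log2 fold change of the tested germline genes was -7.53 with a pseudocount of 0.5, -4.94 with a pseudocount of 5, -5.59 with quantile normalization, -7.25 with a minimum mean of 50, -7.85 with edgeR and -7.79 with DESeq2 (the minimum mean of 50 tested fewer genes, and for the others the cause was not tested). Leaving out each library gave -6.82 to -6.60. The other germline list had 15 genes lower with a mean of at least 50 and 38 with no filter, since fewer or more genes were tested, against 26. All genes called numbered 10143 to 11491 when each library was left out. Depth limits the 24 genes with at most 3 clone reads to bounds or wide intervals. No paired analysis was possible because controls are numbered 1 to 3 and clones 5 to 7.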
